A study of Mus musculus with 12 samples.

Results

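Transcripts of the transforming growth factor beta (TGF-beta) pathway were read in mouse mammary tumours through 10 genes. They were the ligands Tgfb1, Tgfb2 and Tgfb3, the receptors Tgfbr1, Tgfbr2 and Tgfbr3, and the Smads Smad2, Smad3, Smad4 and Smad7. Protein and pathway activity were not measured here. The genes were taken by symbol from the deposited table of 21899 genes. All 10 were found, and all 10 were among the 13638 genes with enough counts to be tested. Across the 4 groups of 3 libraries, Tgfb2 was higher and Tgfbr3 lower in tumours given curcumin with swimming than in control tumours and in tumours of swimming mice, and Smad3 was lower than in swimming alone. The other 7 genes did not pass the main test, the edgeR fit of all 12 libraries, in any comparison of groups.

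TGF-beta ligands are secreted in a latent form, held in the matrix or on cell surfaces until they are released. Free ligand is bound by the type II receptor Tgfbr2, which activates the type I receptor Tgfbr1, and the co-receptor Tgfbr3 (betaglycan) presents ligand and is needed most for Tgfb2. The activated type I receptor phosphorylates Smad2 and Smad3, which enter the nucleus with Smad4, while Smad7 is induced by the pathway and blocks it. In breast cancer the pathway is known both for restraining growth early on and for matrix production, mesenchymal change and spread in advanced tumours.

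The tumours were grown from 4T1-LUC, an established mouse mammary carcinoma line, placed under the skin of 4- to 6-week-old BALB/c mice. Control mice received 200 µL of corn oil by gavage, curcumin mice received 200 µL of corn oil with curcumin at 100 mg/kg, swimming mice received corn oil and then swam for 30 min, and combination mice received curcumin and then swam for 30 min. Every group therefore carried tumour cells and was gavaged, and no library from tumour-free mice was used here. The labels name 5 mice in a group and do not say how the 3 libraries relate to mice or tumours, so a p-value reflects the variation among these libraries and may be technical. Libraries are named by group and number, such as control 2.

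Promoters are shown for 3 genes: Tgfb2, the ligand whose level differed between groups, Tgfb1, the ligand with the highest level, and Smad3, the Smad whose level differed. RefSeq sequence on build GRCm38.p6 was at hand for 5 of the 10 genes (Tgfb1, Tgfb2, Tgfbr1, Tgfbr2 and Smad3). Each run is the 250 bases before the start of the gene, 5′ to 3′ on the gene's own strand: chr1:186705990-186706239 on the minus strand for Tgfb2, chr7:25686752-25687001 on the plus strand for Tgfb1 and chr9:63757995-63758244 on the minus strand for Smad3. Capitals mark motifs searched on both strands: the E-box CACGTG, the TATA box TATAAA, the core of the cyclic AMP response element TGACG, the Smad box CAGAC and the GC box GGGCGG.
Tgfb2: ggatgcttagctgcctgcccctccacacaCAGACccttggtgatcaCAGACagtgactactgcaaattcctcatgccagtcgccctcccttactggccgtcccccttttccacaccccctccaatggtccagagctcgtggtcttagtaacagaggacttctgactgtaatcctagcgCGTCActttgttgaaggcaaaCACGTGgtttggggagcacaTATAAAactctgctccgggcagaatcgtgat
Tgfb1: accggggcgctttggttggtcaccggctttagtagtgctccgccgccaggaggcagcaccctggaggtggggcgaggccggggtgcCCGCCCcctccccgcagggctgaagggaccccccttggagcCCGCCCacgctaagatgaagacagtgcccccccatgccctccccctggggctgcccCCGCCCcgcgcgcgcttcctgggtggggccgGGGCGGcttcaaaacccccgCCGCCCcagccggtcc
Smad3: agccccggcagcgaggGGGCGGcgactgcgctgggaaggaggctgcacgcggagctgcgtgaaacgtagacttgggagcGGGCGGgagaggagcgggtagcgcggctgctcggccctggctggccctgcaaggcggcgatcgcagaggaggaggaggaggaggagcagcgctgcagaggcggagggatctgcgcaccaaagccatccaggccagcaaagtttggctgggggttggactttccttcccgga
Of 32851 promoters of the same length, 6.02% hold the E-box, 12.4% the TATA box, 17.8% the response element core, 42.2% the Smad box and 32.7% the GC box. The Tgfb2 run holds an E-box 51 to 46 bases and a TATA box 31 to 26 bases before the start, a response element core 72 to 68 bases before it and 2 Smad boxes further out, with 0 GC boxes. Tgfb1 has 5 GC boxes and Smad3 has 2, and neither run holds any of the other motifs. The bases are 53.6% G or C in Tgfb2, 75.2% in Tgfb1 and 69.2% in Smad3. A match is a string of letters and not a measured binding site.

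Libraries held 15069348 counts (curcumin 2) to 17278826 counts (control 2), and the 10 genes had between 109 counts (Tgfb2 in swimming 3) and 7841 counts (Smad3 in control 2). Epithelial markers of the tumour cells summed to between 1210 and 1620 FPKM (counts scaled to gene length and library total) in every library, which matches the labelled cell type, and markers of stroma, vessels and immune cells were present as well. In bulk tissue, fewer cells of a type and less RNA per cell cannot be told apart. Control 2 stood apart from controls 1 and 3: skeletal muscle markers summed to 5.72 FPKM there against 87.9 and 174, and neutrophil markers to 239 against 42.1 and 55.1. The combination libraries were the most alike of any group, and every pair of libraries in a group differed by more than sampling noise.

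Levels below are in FPKM, which allows comparison between genes. Averaged over the 12 libraries, Smad3 had the highest level of the 10 genes (57.3 ± 14.8 FPKM, SD, n = 12), above Tgfb1 (42.5 ± 5.32) in 9 of the 12 libraries. The 3 exceptions were the combination libraries, where Tgfb1 was the higher of the pair. Smad4 (29.5 ± 2.27), Tgfbr2 (28 ± 3.49), Tgfbr1 (24.7 ± 3.41) and Tgfb3 (24.6 ± 3.43) formed a middle tier whose neighbours did not separate beyond their spread, since Smad4 exceeded Tgfbr2 in 6 libraries and Tgfbr1 exceeded Tgfb3 in 8. Smad7 (14.4 ± 1.6) and Smad2 (8.53 ± 0.728) followed, each above the next gene in all 12 libraries. Tgfb2 (2.76 ± 1.41) and Tgfbr3 (2.35 ± 0.835) were the least abundant on average. Their order followed the group: Tgfb2 was below Tgfbr3 in all 3 controls and above it in all 3 combination libraries, and it was above in 5 of the 12 libraries. By these means the signalling core was more abundant in these tumours than the betaglycan transcript and the ligand that depends on it most.

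**Figure D1:**
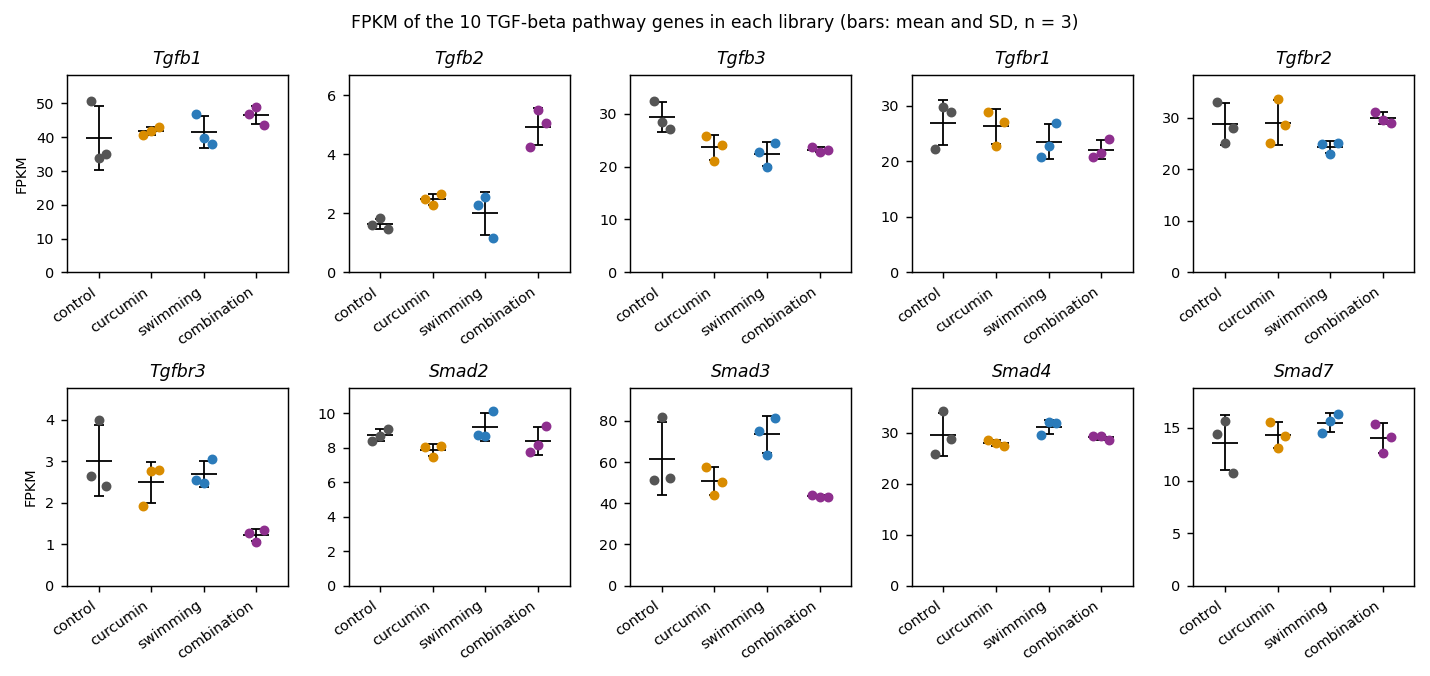
Level of each of the 10 genes in FPKM (y axis, from 0) in the 3 libraries of each group, with points for libraries and bars for the mean and SD (n = 3). Tgfb2 lies at 4.25 to 5.48 in combination and at 1.17 to 2.66 elsewhere, Tgfbr3 at 1.05 to 1.33 in combination and at 1.92 to 3.98 elsewhere.

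Among the ligands, Tgfb2 (ENSMUSG00000039239, chromosome 1, 186354989 to 186438186, minus strand, on GRCm39 per the submitters' processing notes) changed most. Its level was 1.59, 1.83 and 1.48 FPKM in controls 1, 2 and 3, 2.48, 2.29 and 2.66 in the curcumin libraries, 2.28, 2.54 and 1.17 in the swimming libraries, and 4.25, 5.48 and 5.07 in the combination libraries. All combination libraries lay above all 9 others, all curcumin libraries lay above the controls, and swimming 3 was the lowest library of the 12. Against control, Tgfb2 rose 3.06-fold in combination (log2 fold change 1.61 ± 0.24 SE, adjusted p = 0.0095). Against swimming it rose 2.43-fold (1.28 ± 0.23, adjusted p = 0.014). The change against curcumin alone, 1.04 ± 0.23 (adjusted p = 0.057), did not pass, nor did curcumin against control (0.57 ± 0.24, adjusted p = 0.42) or swimming against control (0.33 ± 0.24, adjusted p = 0.6). In this and every later comparison the adjusted p is the Benjamini-Hochberg value of edgeR's quasi-likelihood test over 13638 genes, and a gene is called at 0.05 or below. The GENCODE M21 annotation places the antisense gene Gm29491 on the opposite strand of Tgfb2, and without a stated strand setting, reads of the pair cannot be told apart.

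Tgfb1 (ENSMUSG00000002603), the ligand most often studied in tumours, stood at 50.8, 33.8 and 35.1 FPKM in the controls, 40.7, 41.9 and 43.1 in curcumin, 46.9, 39.7 and 38.1 in swimming and 46.8, 49 and 43.7 in combination. Control 1 was the highest library of the 12 and controls 2 and 3 the lowest, so the controls spanned all other groups. Combination differed from control by 0.24 ± 0.14 (log2, adjusted p = 0.28, 95% interval -0.08 to 0.56). Without control 1 it was 0.45 (adjusted p = 0.016), which passed, as did 15.8% of all genes.

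Tgfb3 (ENSMUSG00000021253), a ligand needed for palate and lung development, measured 32.5, 28.4 and 27.1 FPKM in the controls and from 19.9 to 25.8 in the other 9 libraries. Every control library was above every treated library, yet no comparison with control passed: the log2 fold change was -0.34 ± 0.10 in curcumin (adjusted p = 0.35), -0.35 ± 0.10 in swimming (adjusted p = 0.18) and -0.31 ± 0.10 in combination (adjusted p = 0.085). The 3 comparisons share the control libraries. Tgfb3 is overlapped on the opposite strand by Ttll5, a tubulin-modifying enzyme gene, so its count is uncertain where strand was not used.

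The receptors that carry the signal did not pass in any comparison of all 12 libraries. Tgfbr2 (ENSMUSG00000032440), the ligand-binding kinase, stood at 33.1, 25.1 and 28 FPKM in the controls, 25, 33.6 and 28.6 in curcumin, 24.9, 22.9 and 25 in swimming and 31.2, 29.5 and 29 in combination. Its swimming libraries were below all controls and all combination libraries, with a log2 difference of 0.28 ± 0.12 between combination and swimming (adjusted p = 0.14). That difference passed when only the groups compared were fitted (0.29, adjusted p = 0.018), as did 20.5% of all genes. Tgfbr1 (ENSMUSG00000007613), the kinase that phosphorylates the Smads, ranged from 22.2 to 29.7 FPKM in control, 22.8 to 28.9 with curcumin, 20.8 to 26.9 with swimming and 20.8 to 24 with both, and these ranges overlapped. Combination differed from control by -0.27 ± 0.13 (adjusted p = 0.2, 95% interval -0.57 to 0.03). The difference was -0.39 without control 1 (adjusted p = 0.043), which passed, as did 15.8% of all genes.

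Tgfbr3 (ENSMUSG00000029287, chromosome 5, 107254436 to 107437495, minus strand), which encodes betaglycan, was lowest in combination. Its level was 2.64, 3.98 and 2.4 FPKM in the controls, 1.92, 2.76 and 2.79 in curcumin, 2.54, 2.47 and 3.04 in swimming, and 1.28, 1.05 and 1.33 in combination. The combination libraries lay below all 9 others, while the ranges of the other 3 groups overlapped. Tgfbr3 fell to 0.41 of its control level (log2 fold change -1.29 ± 0.22, adjusted p = 0.015) and to 0.449 of its level in swimming (-1.16 ± 0.22, adjusted p = 0.015). Against curcumin the change was -0.98 ± 0.22 (adjusted p = 0.056), which did not pass. The single treatments stood at -0.30 ± 0.21 (curcumin, adjusted p = 0.6) and -0.13 ± 0.21 (swimming, adjusted p = 0.86) against control. In GENCODE M21, Tgfbr3 is overlapped by Gm43422, Gm43423 and Gm42900 on its own strand and by the pseudogene Gm8145 on the opposite strand. Their part in its count was not tested.

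Smad3 (ENSMUSG00000032402, chromosome 9, 63554049 to 63665276, minus strand), the receptor-activated Smad that binds DNA directly, stood at 51.1, 81.9 and 52.1 FPKM in the controls, 57.5, 44 and 50.5 in curcumin, 75.3, 63.5 and 81.4 in swimming and 44.1, 43.1 and 42.8 in combination. Swimming libraries were above all curcumin and combination libraries, and control 2 was as high as the highest swimming library while controls 1 and 3 were near curcumin. Smad3 fell to 0.582 of the swimming level in combination (log2 fold change -0.78 ± 0.18, adjusted p = 0.028). It did not pass in combination against control (-0.49 ± 0.18, adjusted p = 0.11), swimming against curcumin (0.60 ± 0.18, adjusted p = 0.091) or swimming against control (0.29 ± 0.18, adjusted p = 0.54). The control libraries weigh on both comparisons with control. Without control 2, swimming differed from control by 0.57 (adjusted p = 0.014), which passed, as did 4.36% of all genes. Combination then differed from control by -0.20 (adjusted p = 0.31). Without control 1, combination differed from control by -0.62 (adjusted p = 0.042), which passed, as did 15.8% of all genes.

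The remaining Smads varied little, and none passed in any comparison in the edgeR fit of all 12 libraries. Smad2 (ENSMUSG00000024563), the other receptor-activated Smad, ran from 8.4 to 9.08 FPKM in control, 7.43 to 8.09 with curcumin, 8.67 to 10.1 with swimming and 7.73 to 9.26 with both, with swimming above curcumin in every library (0.29 ± 0.09, adjusted p = 0.098). Smad4 (ENSMUSG00000024515), the partner shared with bone morphogenetic protein signalling, ran from 25.9 to 34.2 FPKM in control, 27.3 to 28.6 with curcumin, 29.6 to 32.1 with swimming and 28.5 to 29.4 with both. Smad7 (ENSMUSG00000025880), the inhibitor that the pathway itself induces, ran from 10.7 to 15.7 FPKM in control, 13.1 to 15.6 with curcumin, 14.5 to 16.3 with swimming and 12.6 to 15.4 with both. For combination against control the 95% intervals of the log2 change were -0.24 to 0.17 for Smad2, -0.24 to 0.23 for Smad4 and -0.26 to 0.37 for Smad7. True changes within those bounds remain compatible with these libraries.

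**Figure D2:**
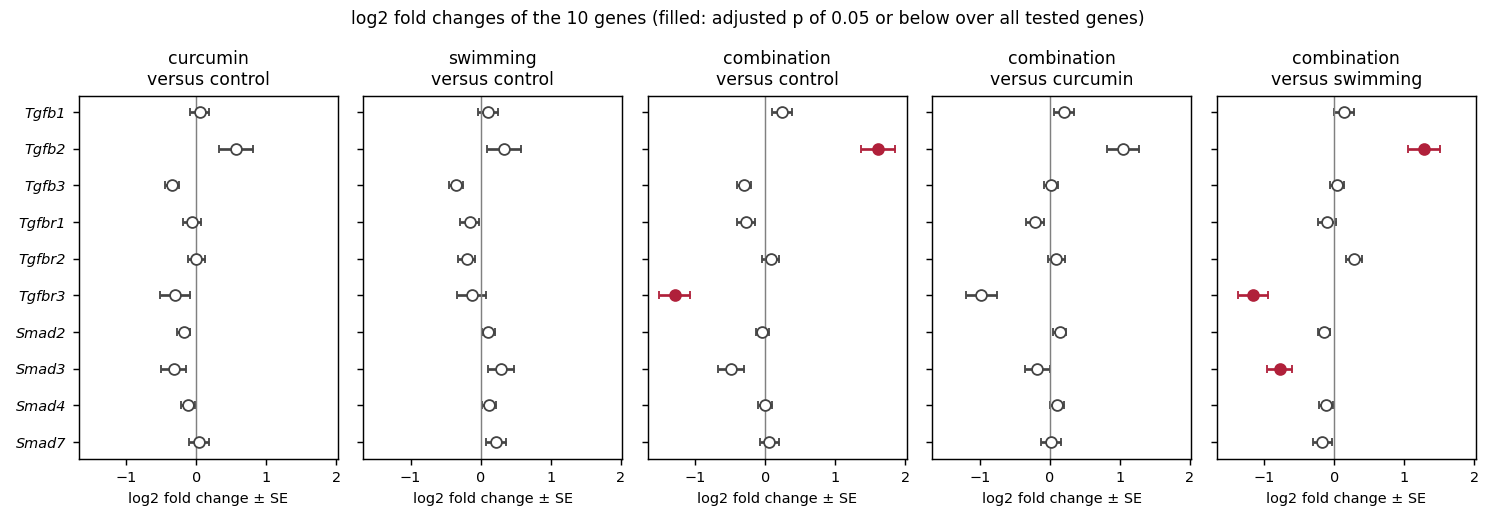
Log2 fold change with its standard error (x axis) of the 10 genes in 5 comparisons, from counts with edgeR on all 12 libraries. Filled points passed an adjusted p of 0.05: Tgfb2 and Tgfbr3 in combination against control, and these 2 with Smad3 in combination against swimming.

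Set side by side, the comparisons gave the following counts. Curcumin against control called 0 of the 10 genes, beside 0% of all tested genes. At an unadjusted p under 0.05 there were 2 (10.9% of all genes), while DESeq2 called 0 (0.692% of the genes it adjusted) and limma voom 0 (0%). In swimming against control 0 were called, beside 0.308% of all genes, with 1 at an unadjusted p under 0.05 (13%), 0 by DESeq2 (2.38%) and 0 by limma voom (0%). Combination against control called 2 of 10 beside 4.86% of all genes, with 4 at an unadjusted p under 0.05 (26.6%), and the same 2 genes by DESeq2 (12.6%) and limma voom (2.95%).

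Combination against swimming called 3 of 10 beside 6.66%, with 4 at an unadjusted p under 0.05 (27.4%), and Tgfb2, Tgfbr3 and Smad3 were also the calls of DESeq2 (13.8%) and limma voom (20.5%). Combination against curcumin called 0 beside 0.851%, with 2 at an unadjusted p under 0.05 (18%), and DESeq2 (5.13%) and limma voom (14.2%) each called Tgfb2 and Tgfbr3 there. Swimming against curcumin called 0 beside 1.78%, with 3 at an unadjusted p under 0.05 (21.8%), where DESeq2 called Smad2 and Smad3 (7.72%) and limma voom Smad3 (6.65%). These are small counts of a list of 10, and several of the unadjusted and limma voom counts lie near the share of all genes. The median log2 change of the 10 genes lay between -0.11 and 0.11 in these 6 comparisons, beside -0.02 to 0 for all tested genes.

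Genes whose 3 libraries in one group did not overlap the 3 in the other numbered 3 of 10 for curcumin against control (14.4% of all tested genes), 2 for swimming against control (13.7%), 4 for combination against control (31.9%), 3 for combination against curcumin (36.8%), 5 for combination against swimming (40.1%) and 3 for swimming against curcumin (31.6%). With a background that high, separation of the libraries alone does not set these genes apart. The 4 genes in combination against control were Tgfb2, Tgfb3, Tgfbr3 and Smad3.

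Whether the combination differed from the sum of the single treatments on the log2 scale was tested as an interaction. It called 0 of the 10 genes, beside 0.249% of all tested genes, with 2 at an unadjusted p under 0.05 (11% of all genes), 0 by DESeq2 (1.66%) and 0 by limma voom (0.264%). The excess over the sum was 0.71 ± 0.33 for Tgfb2 (adjusted p = 0.46, 95% interval -0.06 to 1.47) and -0.85 ± 0.30 for Tgfbr3 (adjusted p = 0.32, 95% interval -1.55 to -0.16). Without control 2, Tgfbr3 (adjusted p = 0.026) and Smad3 (adjusted p = 0.018) passed, beside 3.29% of all genes.

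The calls rested on the combination libraries, over all genes as well as in these. Leaving out 1 of them took the share of all genes called against control from 4.86% to between 0.0289% and 0.145%. Against swimming it went from 6.66% to between 0.225% and 0.644%. Without combination 2 or combination 3, Tgfb2 no longer passed against control (adjusted p = 0.077 and 0.053) or swimming (0.075 and 0.061), and without any 1 of the 3 combination libraries Tgfbr3 lost its call against control (0.064 to 0.096) and swimming (0.057 to 0.08), as Smad3 did against swimming (0.089 to 0.1). Without swimming 1 or swimming 3, Tgfbr3 (0.051 and 0.059) and Smad3 (0.092 and 0.096) also missed the threshold against swimming. Of all genes, 0.788% and 1.17% were called in those 2 settings. Fold changes moved less than p: over all alternatives Tgfb2 stayed between 1.52 and 1.73 against control and Tgfbr3 between -1.44 and -1.

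**Figure D3:**
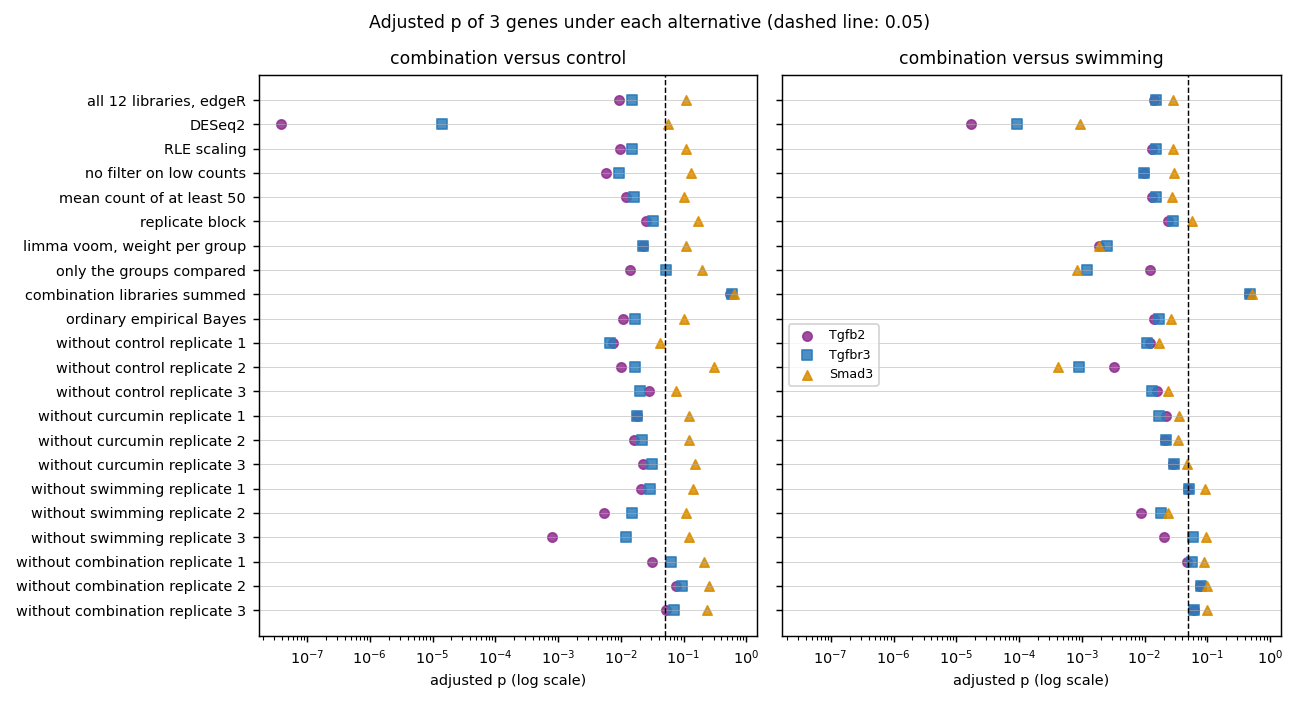
Adjusted p (x axis, log scale) of Tgfb2, Tgfbr3 and Smad3 for 2 comparisons in the fit of all 12 libraries and under each of 21 alternatives. With the combination libraries summed into 1 sample, the 3 genes lie to the right of the dashed line at 0.05. That setting leaves the group without replicates, so it cannot decide whether a gene passes.

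Ligand composition moved with Tgfb2. The 3 ligands together summed to 70.9 ± 12.2 FPKM in control, 68 ± 2.34 with curcumin, 65.9 ± 5.25 with swimming and 74.7 ± 2.71 with both (SD, n = 3), and these ranges overlapped between combination and control. Tgfb2 made up 2.35 ± 0.492% of that sum in control, 3.64 ± 0.156% with curcumin, 3.03 ± 1.14% with swimming and 6.61 ± 0.802% with both, while Tgfb3 made up 41.7 ± 3.08%, 34.7 ± 2.56%, 34 ± 3.85% and 31.2 ± 1.45%. Tgfbr3 made up 5.13 ± 1.44% of the summed receptors in control, 4.29 ± 0.742% with curcumin, 5.32 ± 0.201% with swimming and 2.29 ± 0.234% with both. Even in combination, Tgfb2 was therefore a small part of ligand transcript, most of which was Tgfb1. Smad7 stood at 22.7 ± 4.88% of the Smad3 level in control, 28.3 ± 1.32% with curcumin, 21.3 ± 2.93% with swimming and 32.3 ± 2.8% with both. These shares are given as descriptions, with no test.

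**Figure D4:**
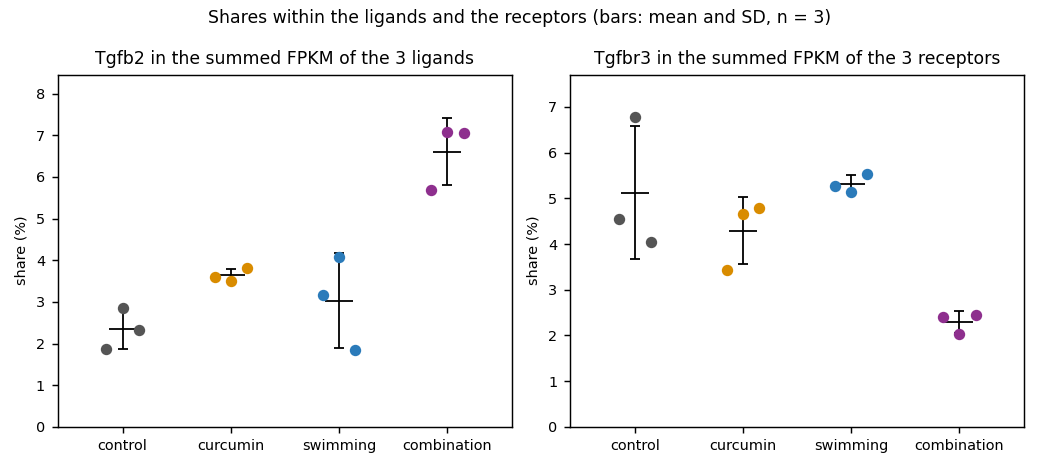
Share in percent (y axis, from 0) of Tgfb2 in the summed FPKM of the 3 ligands, left, and of Tgfbr3 in the summed FPKM of the 3 receptors, right, with points for libraries and bars for the mean and SD (n = 3). Combination libraries hold 5.68 to 7.08% Tgfb2 among ligands and 2.02 to 2.44% Tgfbr3 among receptors.

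Markers of other cell types also differed between control and combination. Summed endothelial markers went from 67.1 to 91 FPKM to 101 to 112 (1 of 8 called higher, 0 at 0), pericyte or smooth muscle markers from 88.8 to 104 to 133 to 143 (0 of the 5 tested of 6 called, 0 at 0), and fibroblast markers from 59.9 to 103 to 118 to 139 (0 of 8 called, 0 at 0). Acta2, also in the target list below, supplied most of the pericyte or smooth muscle sum in the combination libraries. It stood at 58.7, 91 and 49 FPKM in controls 1, 2 and 3 and at 116, 106 and 110 in combination. Of the 5 tested markers of that list 4 had positive log2 changes, while Des (-0.9) was negative. Of the 8 fibroblast markers 5 had positive log2 changes, while Pdgfra (-0.45), Dpt (-0.49) and Dcn (-0.04) were negative. Adipocyte markers went from 1.44 to 3.61 FPKM to 8.88 to 10.3, with 3 of the 4 tested of 8 called higher and Lep and Pck1 at 0 in control. The median log2 change of the 4 tested was 6.04. A gene that low in control can pass the count filter through the combination libraries alone, so these adipocyte calls carry little weight. Neutrophil markers went from 42.1 to 239 FPKM down to 22.4 to 23.9, with 2 of the 6 tested of 8 called lower and 0 at 0. Mitochondrially encoded genes took 2.96 to 4.3% of counts in control and 4.86 to 6.1% in combination, with 4 of the 10 tested of 13 called higher and mt-Atp8 at 0 in both groups. Tumour epithelial markers were lower in sum, at 1410 to 1490 FPKM in combination against 1530 to 1620 (0 of 8 called, 0 at 0). Summed macrophage markers overlapped, at 443 to 469 FPKM against 441 to 826 (0 of 7 called, 0 at 0), although 6 of the 7 had negative log2 changes (median -0.45). Their part in the Tgfb2 and Tgfbr3 differences was not tested.

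Against swimming, 7 of the 12 marker lists other than the mitochondrial one separated in sum. Summed endothelial markers stood at 32.9 to 51.7 FPKM in swimming (7 of 8 called higher in combination, 0 at 0), fibroblast markers at 61.5 to 80 (0 of 8 called, 0 at 0), adipocyte markers at 2.06 to 3.99 (1 of the 4 tested called higher, Lep at 0) and neutrophil markers at 115 to 120 (3 of the 6 tested called lower, 0 at 0). Pericyte or smooth muscle markers stood at 77 to 129 FPKM in swimming against 133 to 143 in combination (1 of the 5 tested, Rgs5, called higher, 0 at 0), platelet markers at 23.1 to 33.6 against 9.62 to 14.2 (1 of the 3 tested of 4, Pf4, called lower, 0 at 0) and tumour epithelial markers at 1530 to 1610 against 1410 to 1490 (0 of 8 called, 0 at 0). Acta2 itself overlapped, at 89.9, 115 and 55.4 FPKM in swimming against 116, 106 and 110 in combination. The limit given above for the adipocyte calls holds here as well. The mitochondrially encoded share of counts overlapped, at 4.36 to 4.87% in swimming against 4.86 to 6.1% (1 of the 10 tested called higher). Their part in the Tgfb2, Tgfbr3 and Smad3 differences was not tested.

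The pathway was then read around these genes in 4 lists of 53 further genes, of which 52 were tested. The actin-binding target Tagln was the exception, at 0.2 FPKM or less in every library, where Acta2 stood at 49 to 116. Whether the Tagln value, and the absence of mt-Atp8 counts in control and combination, reflect expression or how reads were counted was not tested. The 13 genes of ligand latency and activation held most of the calls. In combination against control 0 were called higher and 2 lower, beside 4.86% of all genes (median log2 change -0.33, all genes -0.02). The list did not move 1 way: 6 of the 13 had positive changes, the largest being Itgb6 (1.24, adjusted p = 0.052, at most 1.04 FPKM). At an unadjusted p under 0.05 there were 9 (26.6% of all genes), while DESeq2 called 6 (12.6%) and limma voom 1 (2.95%). The 2 called lower were Ltbp4, a latent TGF-beta binding protein of the matrix, and Nrros, which tethers latent ligand on myeloid cells. Ltbp4 stood at 23.6, 35.8 and 27 FPKM in the controls and 19.3, 20.4 and 18.2 in combination, and fell by 0.56 on the log2 scale (adjusted p = 0.048). Nrros stood at 8.56, 7.08 and 9.22 FPKM against 4.37, 3.45 and 5.37, and fell by 0.89 (adjusted p = 0.025). In both genes the controls lay above the combination libraries without overlap, and 31.9% of all tested genes had no overlap in this comparison. The Ltbp4 call was lost with limma voom (adjusted p = 0.052), RLE scaling (0.051), the replicate block (0.078) and only the groups compared (0.13). It was also lost without 9 of the 12 libraries in turn, and kept only without control 1, swimming 2 or swimming 3 (adjusted p = 0.011 to 0.16 over all 12), and its log2 change was -0.34 (adjusted p = 0.09) without control 2. That of Nrros was lost without control 3 or any 1 combination library (adjusted p up to 0.13). Macrophage markers, from the myeloid cells that carry Nrros, had 1 of 7 positive changes in the same comparison, and their part was not tested.

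Against swimming, 1 gene of that list was higher in combination and 2 were lower, beside 6.66% of all genes called. Of the 13, 7 had positive changes (median 0.17, all genes 0) and 7 an unadjusted p under 0.05 (27.4% of all genes). DESeq2 called 4 (13.8%) and limma voom 7 (20.5%). Lrrc32 (GARP), which tethers latent ligand on regulatory T cells, platelets and endothelium, rose from 5.66, 6.59 and 3.95 to 9.3, 8.77 and 8.64 FPKM (0.70, adjusted p = 0.024). In the same comparison 7 of 8 endothelial markers were called higher (median log2 change 1.31). Positive changes were seen in 0 of 3 tested platelet markers and 1 of 6 tested T or NK cell markers. The part of these cells in the Lrrc32 difference was not tested. Ltbp3 fell from 148, 117 and 153 to 90.3, 86.4 and 83.8 FPKM (-0.70, adjusted p = 0.022), and Ltbp4 by 0.69 (adjusted p = 0.021). Combination against curcumin called Nrros (-1.05, adjusted p = 0.025), 1 of 13 beside 0.851% of all genes, and swimming against curcumin called Ltbp4 higher (0.70, adjusted p = 0.039) and Nrros lower (-0.81, adjusted p = 0.045), 2 of 13 beside 1.78%. Summed macrophage markers separated in both comparisons, at 573 to 847 FPKM in curcumin, 443 to 469 in combination and 310 to 561 in swimming (0 of 7 called in either, 0 at 0), and their part was not tested. In the curcumin libraries Ltbp4 stood at 20, 20.4 and 19 FPKM, the level of the combination libraries. Without swimming 1, swimming 3 or any 1 combination library, Ltbp3, Ltbp4 and Lrrc32 lost their calls between combination and swimming (adjusted p up to 0.092, 0.091 and 0.093). The share of all genes called fell in each of these settings as well. The Nrros call against curcumin was lost without curcumin 2, curcumin 3 or any 1 combination library (up to 0.15), and swimming against curcumin lost both calls without swimming 1, swimming 3, curcumin 2, curcumin 3 or any 1 combination library, Ltbp4 also without curcumin 1 and Nrros without swimming 2 (up to 0.16 for each). Calls over all genes fell in these settings too, except without swimming 2 (1.94%). In either single treatment against control 0 of the 13 were called, with 3 (curcumin) and 1 (swimming) at an unadjusted p under 0.05, beside 10.9% and 13% of all genes. DESeq2 called 1 in each, beside 0.692% and 2.38%, and limma voom 0.

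Receptor modulators and Smad regulators gave few calls. Of 7 receptor modulators, Strap, a receptor-associated inhibitor, was called higher in combination against control (34.7, 36 and 34.8 against 41.3, 42.7 and 46.6 FPKM, log2 change 0.33, adjusted p = 0.049). That was 1 of 7 beside 4.86% of all genes, and the list's median was 0.01. Of 14 Smad regulators, the corepressor Tgif2 was called lower in combination against swimming (1.06, 0.94 and 0.972 against 0.41, 0.418 and 0.641 FPKM, -1.04, adjusted p = 0.047). That was 1 of 14 beside 6.66% of all genes, near that share, with a list median of -0.09 beside 0 for all genes. Combination against control called 0 of the 14, with 7 at an unadjusted p under 0.05 (26.6% of all genes), 3 called by DESeq2 (12.6%) and 0 by limma voom (2.95%). Both calls lay at the threshold: Strap passed with 1 library left out only for control 1, curcumin 2 or swimming 2 (adjusted p up to 0.17), and Tgif2 only for a control library (up to 0.16).

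Of the 22 genes commonly used as TGF-beta targets, 21 were tested and 0 were called in any of the 7 comparisons. In combination against control 19 of the 21 had positive log2 changes with a median of 0.31 (all genes -0.02), 8 had an unadjusted p under 0.05 (26.6% of all genes), DESeq2 called 3 (12.6%) and limma voom 0 (2.95%). In combination against swimming 13 were positive (median 0.30, all genes 0), 9 had an unadjusted p under 0.05 (27.4% of all genes), DESeq2 called 3 (13.8%) and limma voom 8 (20.5%). Pmepa1, a feedback inhibitor, stood at 0.40 ± 0.12 (adjusted p = 0.061), the collagen gene Col1a1 at 0.97 ± 0.40 (adjusted p = 0.15) and fibronectin, Fn1, at -0.54 ± 0.18 (adjusted p = 0.091) in combination against control. Those 3 were named after their values were seen. Col1a1 shows how much 1 library weighs, at 64.8 FPKM in control 2 beside 217 and 267 in controls 1 and 3 and 338 to 362 in combination. Without control 2 its change was 0.58 (adjusted p = 0.19), that of Fn1 was -0.25 (adjusted p = 0.23) and that of Pmepa1 was 0.51 (adjusted p = 0.03). Pmepa1 thus passed there, as did 2.29% of all genes.

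**Figure D5:**
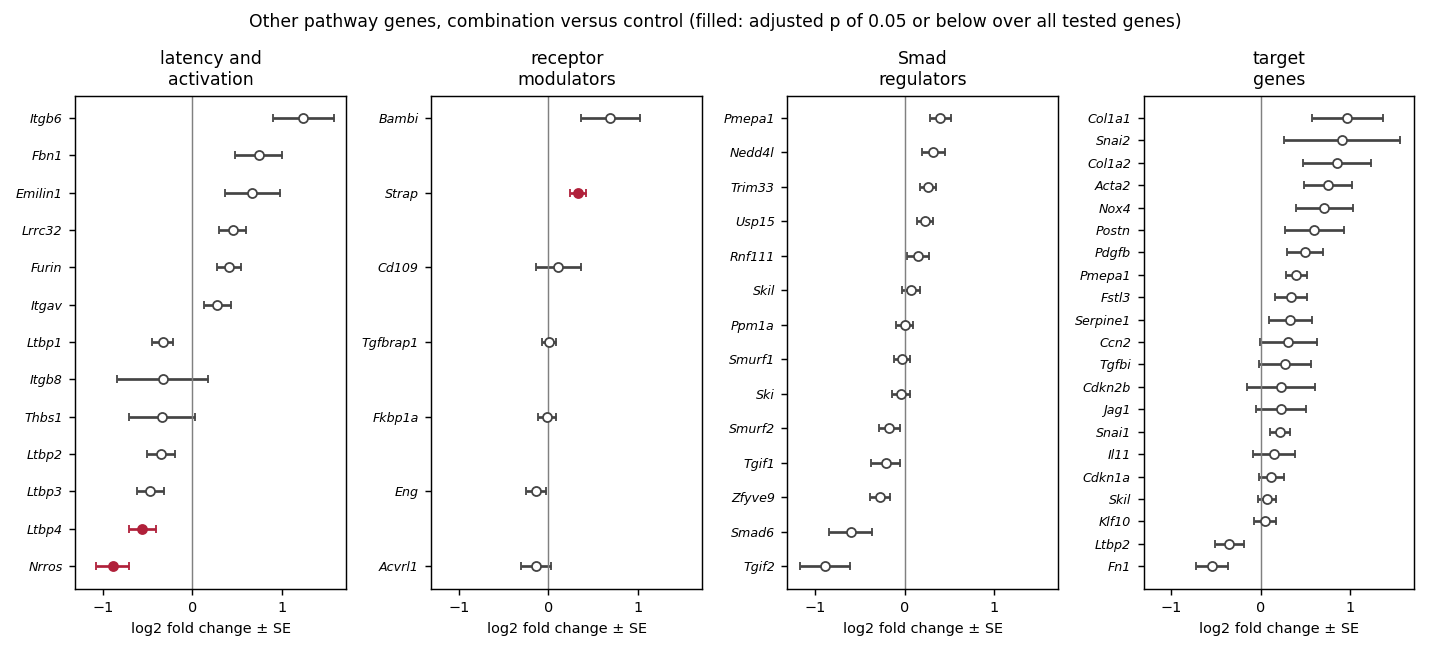
Log2 fold change with its standard error (x axis) of the tested genes of 4 other pathway lists in combination against control, ordered by size within each list; genes in 2 lists are drawn in both. Filled points passed an adjusted p of 0.05: Ltbp4, Nrros and Strap.

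The genes whose log2 level followed each of the 3 called genes most closely over the 12 libraries are given as a description, since these libraries fall into 4 groups and share depth and cell content. For Tgfb2 they were Osbp2 (Pearson r = 0.956), Ednrb (0.952), Ebf1 (0.95), Myadm (0.947), Vgll3 (0.946) and Peg10 (0.941). Ednrb, an endothelin receptor, stood at 1.43 FPKM in control and 3.11 in combination on average. For Tgfbr3 they were Trib3 (0.963), Styxl1 (0.949), Tox4 (0.945), Tep1 (0.941), Itm2c (0.936) and Khnyn (0.935), and Trib3, a stress-induced pseudokinase, averaged 9.27 FPKM in control and 3.19 in combination. Smad3 was followed by Nisch (0.977), Zfp608 (0.968), Ltbp3 (0.954), Zfp395 (0.952), Gsta4 (0.952) and Zfp408 (0.951). Among the 10 genes themselves, Tgfb1 ran opposite to Tgfbr1 (r = -0.87) and Tgfb2 opposite to Tgfbr3 (-0.83), while Smad3 ran with Smad4 (0.72) and Tgfbr3 (0.7).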

How the data were processed

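Bulk RNA from 12 tumour libraries was read from 1 deposited table. The authors deposited raw counts from HTSeq 0.9.1 and FPKM, per the submitters' processing notes, which also name cutadapt, TopHat2, HISAT2 and build GRCm39. The protocol in the labels gives mm9 and HISAT2 2.0.5, leaving the build uncertain, and strand is not stated. Deposited FPKM equalled count over gene length and library total in 184877 of 184877 values above 0 (relative tolerance 1e-05).

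Genes passing filterByExpr (minimum count 10, minimum total 15) entered 1 robust quasi-likelihood fit of all 12 libraries in edgeR 4.0.16 (R 4.3.3) with TMM scaling, leaving 8 residual degrees of freedom for 7 contrasts. Alternatives were DESeq2 1.42.0, limma 3.58.1 voom with a weight per group, RLE scaling, the filter left out or replaced by a mean count of 50 or more, only the groups compared, a replicate block, combination libraries summed, and each library left out. Non-robust moderation was added after the data were seen.

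The 10 genes, the lists and the rules were chosen with earlier results of these data known. Named were all 10 genes, called pathway genes (at most 6 per list and comparison) and the 6 genes most correlated (log2 CPM, prior count 2) with each called gene.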

Additional observations from a re-analysis of the deposited data

How the results depend on the processing

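Each log2 change was recomputed under 21 alternatives (20 for the interaction, which needs all 4 groups), giving 1460 values for 70 results. Of these, 1367 kept their direction and their side of the threshold, 24 lost a call, 26 gained one and 43 changed sign, none of them called. Sign changes touched 20 results whose size was at most 0.24.

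For combination against control, 2 genes were called in the fit of all libraries (4.86% of all genes). With only the groups compared 1 was called (Tgfb2, beside 0.994% of all genes), and Tgfbr3 had an adjusted p of 0.052. For combination against swimming 3 were called (6.66%), and 4 (Tgfbr2 added) with only the groups compared (20.5%). With the combination libraries summed, 1 library stands for the group and is assumed to vary like the others. Without replicates in that group, the setting cannot decide whether a gene passes. For combination against curcumin 0 were called (0.851%), 2 with DESeq2 (5.13%), limma voom (14.2%) or only the groups compared (16%), and 1 (Tgfbr3) without the filter (0.646%). For swimming against curcumin 0 were called (1.78%), 2 with DESeq2 (7.72%), and 1 with limma voom (6.65%) or only the groups compared (4.98%). The limit of the summed setting holds as well for Ltbp3, Ltbp4, Lrrc32, Nrros, Strap and Tgif2 in the comparisons with combination. The cause of these differences was not tested beyond what each setting changes.

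Leaving out 1 library at a time gave 0 to 5 calls for combination against control (5 without control 1: Tgfb1, Tgfb2, Tgfbr1, Tgfbr3 and Smad3), 0 to 2 for combination against curcumin, 0 to 3 for combination against swimming, 0 to 1 for swimming against control, 0 to 2 for swimming against curcumin and 0 to 2 for the interaction, where the values of 1 and 2 in the last 3 came without control 2. The share of all genes called moved widely as well. For combination against control it was 15.8% without control 1, beside 4.86% with all libraries. Without control 2 it was 4.36% for swimming against control, 11.1% for swimming against curcumin and 3.29% for the interaction.

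Replicate numbers did not pair the libraries: deviations of same-numbered libraries correlated at -0.251 to 0.165 over 18 pairs, with 5 of 12 libraries closest to their own number. With the replicate block 2 genes were called in combination against control (1.61% of all genes), 2 in combination against swimming (3.64%, Smad3 at adjusted p = 0.057) and 0 elsewhere.

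Sign changes outside the leave-one-out settings concerned 2 results whose change was 0: Smad4 in combination against control, at 0 with DESeq2, RLE scaling and the replicate block and 0.01 with limma voom, and Tgfbr2 in curcumin against control, at 0 with a mean count of 50 or more. Leaving out 1 library at a time gave these log2 ranges where the sign changed. For curcumin against control, Tgfbr2 -0.13 to 0.11, Tgfb1 -0.05 to 0.26, Tgfbr1 -0.19 to 0.04, Smad4 -0.19 to 0.04 and Smad7 -0.12 to 0.18. For the interaction, Tgfb1 -0.12 to 0.2, Tgfbr1 -0.15 to 0.08, Smad4 -0.16 to 0.07 and Smad2 -0.05 to 0.09. For swimming against control, Tgfbr3 -0.29 to 0.15. For combination against control, Smad4 -0.09 to 0.14, Smad7 -0.11 to 0.2 and Smad2 -0.11 to 0.03. For combination against curcumin, Tgfbr2 -0.02 to 0.21, Tgfb3 -0.05 to 0.08 and Smad7 -0.05 to 0.08. For swimming against curcumin, Tgfb3 -0.08 to 0.06, Tgfb1 -0.05 to 0.12 and Tgfb2 -0.46 to 0.04. For combination against swimming, Tgfb3 -0.04 to 0.1.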
